A study of Mus musculus with 94 samples.

Results

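The 10 genes described here encode the machinery that carries a secretory granule to the plasma membrane and fuses it there. They were taken by name (Snap23, Stx3, Stx4a, Stx11, Vamp7, Vamp8, Unc13d, Stxbp2, Rab27a and Rab27b), and 9 of the 10 were matched to a row among the 46078 gene identifiers of the count table. Vamp7, a vesicle SNARE of late endosomes and lysosomes, was paired with no identifier by the name tables used and was not analysed here. The table holds 94 single bone marrow cells of female C57BL/6 mice, each sorted as a live basophil that lacked lineage markers and Sca1 and carried the high-affinity IgE receptor FcεRI. The groups are a CD34-negative and a CD34-positive gate with 47 cells each. CD34 marks the surface of haematopoietic progenitors, so the comparison is between basophils with and without this mark of immaturity. The design names 3 mice, but no label ties a cell to a mouse, so a gate is treated as 1 sample, nothing could be tested and no difference below has a replicate check.

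Basophils are granulocytes that store histamine and proteases in granules and release them when IgE on FcεRI is cross-linked. Granule fusion needs a vesicle SNARE (VAMP) that zips with a syntaxin and a SNAP-23-type SNARE of the target membrane. Sec1/Munc18 proteins such as Munc18-2 hold and guide the syntaxin, Munc13-4 primes the docked granule, and Rab27 GTPases bring granules to the membrane. Inherited loss of Rab27a, Munc13-4, syntaxin 11 or Munc18-2 in humans causes immune disease with defective granule release by cytotoxic lymphocytes.

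Of each gate 46 cells were kept, with 262944 to 938322 gene reads per CD34-negative cell (median 737059) and 374011 to 1154738 per CD34-positive cell (median 633178). Cd34 itself had 7 reads among CD34-negative cells and 1799 among CD34-positive ones. All 10 basophil markers had reads in both gates, with summed levels per CD34-negative cell of 247 to 140990 CPM (counts per 1e6 gene reads) and per CD34-positive cell of 6420 to 174450 CPM. Of the 7 mast cell markers, Mrgprb2, Mrgprb1 and Cma2 were at 0 in both gates, and the list summed to 0.0299 CPM without and 7.33 CPM with CD34, the latter reaching 285 CPM in the highest cell. The megakaryocyte list summed to 1447 CPM without and 935 CPM with CD34, neutrophil markers to 19.7 and 67.4 CPM, and eosinophil markers to 76.7 and 112 CPM, with up to 1496 CPM in a cell. Pf4 and Ppbp were at 0 in both gates, as were Ltf, Camp, Retnlg and Ly6g of the neutrophil and Ear1 and Il5ra of the eosinophil list. Prg2 and Epx of the eosinophil list and Cma1, Mcpt4 and Tpsb2 of the mast cell list were at 0 in CD34-negative cells and had reads in CD34-positive ones. B cell, erythroid, T and NK cell, and monocyte and dendritic cell markers each summed to at most 63.7 CPM, though the monocyte and dendritic cell list reached 1411 CPM in a CD34-negative cell and the B cell list 589 CPM in a CD34-positive one. Mast cells also use these exocytosis genes, and the part of other cell types in the results was not tested. The median number of gene reads per read of the ERCC spike-in RNA was 6.87 in CD34-negative and 14.4 in CD34-positive cells. Levels are given relative to gene reads, a scaling that leaves this difference out. Values relative to ERCC reads are given further below for the log2 folds whose sign they turn.

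The sequences before the starts of Rab27a and Stx3 are shown first, because Rab27a had the lowest ratio between the gates and Stx3 is the most heavily read member. RefSeq's promoter windows (GRCm38.p6) held 7 of the 9 matched members, and Unc13d and Rab27b were not among them. Each line gives the 250 bases before a start, 5′ to 3′ on the gene's strand, with matches to the motifs named below in capitals. Rab27a has 2 starts, 19338 bases apart, at chr9:73044560-73044809 and chr9:73063898-73064147 on the plus strand. The Stx3 window is chr19:11819404-11819653 on the minus strand.
Rab27a, upstream start: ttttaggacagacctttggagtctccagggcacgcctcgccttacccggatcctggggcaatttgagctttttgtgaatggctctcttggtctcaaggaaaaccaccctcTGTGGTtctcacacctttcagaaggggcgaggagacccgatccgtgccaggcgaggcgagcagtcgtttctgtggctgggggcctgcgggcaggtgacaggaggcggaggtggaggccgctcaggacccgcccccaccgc
Rab27a, downstream start: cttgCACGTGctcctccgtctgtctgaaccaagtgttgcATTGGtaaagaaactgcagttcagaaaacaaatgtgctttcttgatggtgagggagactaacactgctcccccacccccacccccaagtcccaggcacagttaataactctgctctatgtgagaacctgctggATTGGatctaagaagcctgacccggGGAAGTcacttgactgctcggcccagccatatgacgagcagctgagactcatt
Stx3: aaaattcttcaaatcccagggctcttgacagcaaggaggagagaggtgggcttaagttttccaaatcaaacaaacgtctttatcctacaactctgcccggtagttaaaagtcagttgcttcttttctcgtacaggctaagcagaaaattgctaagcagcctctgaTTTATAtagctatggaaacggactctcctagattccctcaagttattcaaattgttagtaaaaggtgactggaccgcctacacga
On both strands 9 motifs were searched. The downstream Rab27a window held CACGTG (an E-box, present in 6.02% of 32851 windows of this length), GGAAGT (an ETS core, 19.7%) and CCAAT in 2 places (33.8%). The upstream window held TGTGGT (a RUNX core, 14%), and the Stx3 window held TATAAA (12.4%) on the opposite strand. AGATAA (9.99%) and TGATAA (7.94%), both GATA motifs, CATGTG (12.3%) and TGACTCA (an AP-1 motif, 4.46%) were in none of the 3 windows. Reads were counted per gene, so that the 2 starts of Rab27a could not be told apart in these data.

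The syntaxins differed widely in level. Stx3 (ENSMUSG00000041488, chr19:11775118-11819403, minus strand, GRCm38) encodes syntaxin 3, a granule and plasma membrane SNARE. It had 17985 reads in CD34-negative cells and 10784 in CD34-positive ones. Its level per cell ran from 0 through a median of 481 to 1605 CPM in CD34-negative cells and from 0 through 285 to 1404 CPM in CD34-positive cells. Nearly every cell carried it, and the ranges of the gates overlapped almost completely. Only 2 cells in each gate had no Stx3 read, and in these cells 3 reads, the limit that a count of 0 allows, correspond to at most 5.08 CPM.

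Stx4a (ENSMUSG00000030805, chr7:127824294-127849019, plus strand) encodes syntaxin 4, the plasma membrane syntaxin of many secretory cells. Its cells ran from 0 through a median of 41.8 to 431 CPM without CD34 and from 0 through 52.6 to 266 CPM with it. It was thus read in most cells, at a lower level than Stx3. Per kilobase of merged exon, the summed level of Stx3 was 2.75 times that of Stx4a in the CD34-negative gate and 2.14 times in the other.

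Stx11 (ENSMUSG00000039232, chr10:12938209-12964298, minus strand) encodes syntaxin 11, a lipid-anchored syntaxin needed for granule release by killer lymphocytes. It was close to absent, with 4 reads in 3 CD34-negative cells and 126 reads in 3 CD34-positive cells. Of the latter reads 98.4% came from cell 22, at 163 CPM, and no other cell of either gate was above 2.50 CPM. At 200000 gene reads drawn per cell, Stx11 was found in 1 of 46 cells of each gate, or 2.17% (exact 95% interval 0.0550% to 11.5%). The T and NK cell list had reads of 3 of its 7 markers in the CD34-negative gate (0.449 CPM in sum) and of none in the CD34-positive gate.

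Among the partner SNAREs of the syntaxins, Vamp8 was near the top and Snap23 far lower. Vamp8 (ENSMUSG00000050732, chr6:72385223-72390703, minus strand) encodes the granule SNARE that mast cells need for regulated release. Its cells ran from 0 through 143 to 1167 CPM in the CD34-negative gate and from 0 through 254 to 995 CPM in the CD34-positive gate. The medians lay apart, but the summed levels were 247 CPM (counting interval 242 to 252) and 246 CPM (240 to 251), because fewer CD34-negative cells held more of the reads. In the CD34-negative gate 8 cells held 50% of the Vamp8 reads, against 13 cells in the CD34-positive gate.

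Snap23 (ENSMUSG00000027287, chr2:120567671-120601255, plus strand) encodes SNAP-23, which supplies the remaining helices of the fusion complex. It ran from 0 through 43.8 to 442 CPM without CD34 and from 0 through 70.9 to 427 CPM with it. No read was found in 12 CD34-negative and 11 CD34-positive cells. Together Snap23 and Stx4a were both read in 28 of 46 CD34-negative and 30 of 46 CD34-positive cells, and both were missing in 3 and 2 cells.

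The regulators of docking and priming were read in almost every cell. Stxbp2 (ENSMUSG00000004626, chr8:3630955-3643644, plus strand) encodes Munc18-2, the partner of syntaxins 3 and 11. It ran from 0 through 297 to 1895 CPM without CD34 and from 1.67 through 322 to 805 CPM with it. Its spread over cells was wider in the CD34-negative gate, with a mean of 420 ± 415 CPM (SD, n = 46 cells) against 329 ± 199 CPM (SD, n = 46 cells). These SDs describe cells, not replicates.

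Unc13d (ENSMUSG00000057948, chr11:116062095-116077961, minus strand) encodes Munc13-4, the priming factor that binds Rab27. It ran from 0 through 258 to 1151 CPM without CD34 and from 0 through 159 to 900 CPM with it. In each gate 45 of 46 cells had a read. Relative to gene reads, the CD34-negative cells lay higher at the median and the top of their range, while ERCC scaling turned the summed difference round, as given below.

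Rab27a (ENSMUSG00000032202, chr9:73044854-73097629, plus strand) encodes the small GTPase that tethers granules to the cell cortex. It ran from 0 through 220 to 1127 CPM in CD34-negative cells and from 1.51 through 124 to 347 CPM in CD34-positive cells. The gates overlapped up to 347 CPM, and the upper part of the CD34-negative range had no counterpart in the CD34-positive gate. The upper quartile over cells was 388 CPM without CD34 and 193 CPM with it. The mean was 278 ± 269 CPM (SD, n = 46 cells) and 132 ± 98.5 CPM (SD, n = 46 cells), a difference smaller than the SD of the CD34-negative and larger than that of the CD34-positive cells. A pseudogene, Gm27186, shares 149 bases (3.84%) of the Rab27a exons on the same strand and had 15 reads in all.

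Rab27b (ENSMUSG00000024511, chr18:69979131-70141605, minus strand), the close paralog of Rab27a that mast cells also use, was rare. It had 143 reads in 4 CD34-negative cells, of which 74.1% were in cell 39, and 374 reads in 9 CD34-positive cells, of which 57.2% were in cell 43. The highest cells reached 199 and 222 CPM, within the range of Rab27a. Per kilobase of merged exon, the summed level of Rab27a was 173 times that of Rab27b in the CD34-negative gate and 29.5 times in the other. With all reads, Rab27a was read in 91 of the 92 kept cells, among them each of the 13 cells with a Rab27b read. At 200000 gene reads drawn per cell, 1 CD34-positive cell had a Rab27b read and no Rab27a read.

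**Figure D1:**
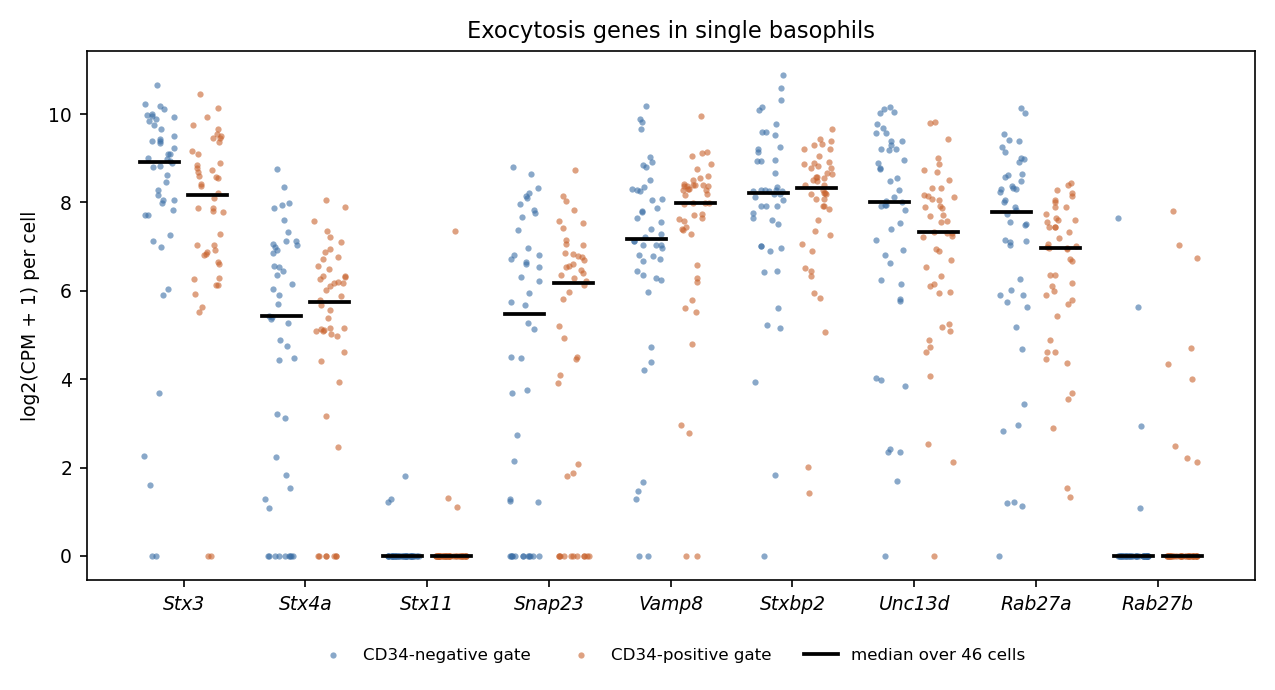
Level of the 9 matched genes in each kept cell, as log2(CPM + 1) on the vertical axis, with 46 cells per gate as points and the median over cells as a black line. Stx3, Vamp8, Stxbp2, Unc13d and Rab27a fill a broad band in both gates, while Stx11 and Rab27b are at 0 in all but a few cells.

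Detection at a fixed depth set Rab27b and Stx11 apart from the other genes. Among the others some intervals overlapped, such as those of Stx4a and Vamp8 in both gates. At 200000 gene reads per cell, Unc13d was found in 97.8% of the cells of each gate (45 of 46, exact 95% interval 88.5% to 99.9%). Stxbp2, Rab27a, Stx3 and Vamp8 were found in 91.3% to 97.8% of cells. Snap23 followed with 69.6% (54.2% to 82.3%) of CD34-negative and 76.1% (61.2% to 87.4%) of CD34-positive cells. For Stx4a the shares were 73.9% (58.9% to 85.7%) and 82.6% (68.6% to 92.2%). Rab27b was found in 8.70% (2.42% to 20.8%) and 15.2% (6.34% to 28.9%) of cells. These intervals cover the counting of cells within 1 sample and do not test a difference between the gates.

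The 5 most widely found genes (Stx3, Stxbp2, Unc13d, Rab27a and Vamp8) were all present in 37 of 46 CD34-negative and 40 of 46 CD34-positive cells at this depth. No cell lacked all of them. Of the 9 genes, a median of 6 was found per CD34-negative cell (range 4 to 8) and of 7 per CD34-positive cell (range 2 to 8). The means were 6.30 ± 0.963 (SD, n = 46 cells) and 6.57 ± 1.11 (SD, n = 46 cells). The lowest cell was cell 1 of the CD34-positive gate, with Vamp8 and Rab27a only. That cell had 2.93 gene reads per ERCC read, and its ambiguous reads, those assigned to more than 1 gene, made up 49.0% of its gene and ambiguous reads, against a median of 19.1% in its gate. Their part in the result was not tested.

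**Figure D2:**
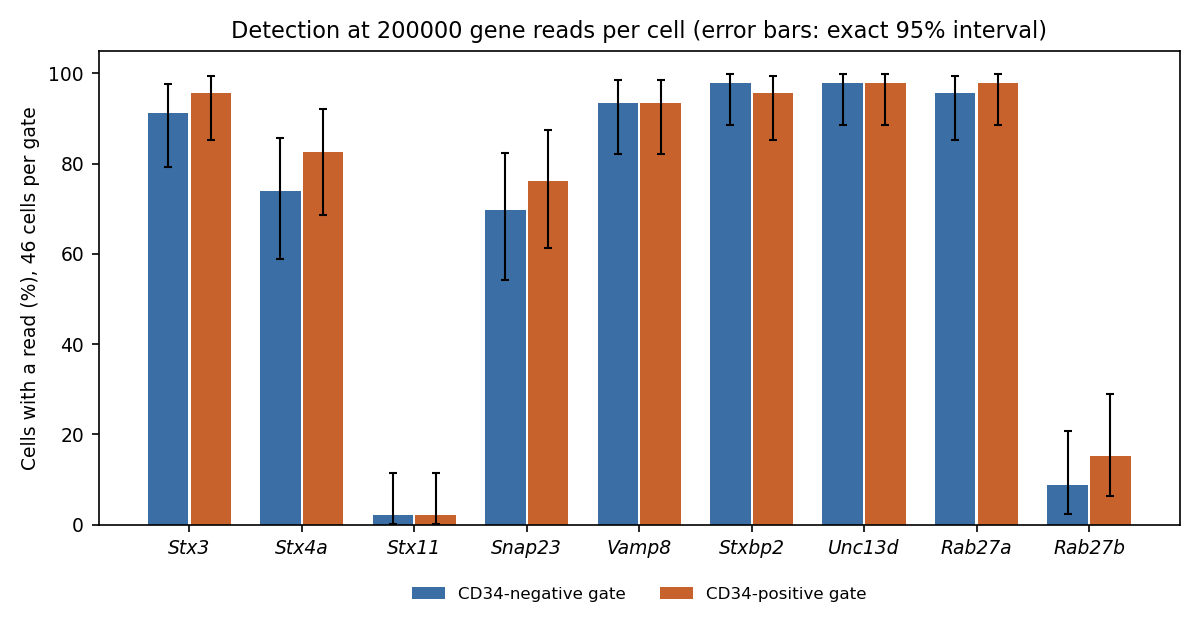
Share of the 46 kept cells of each gate with at least 1 read of each gene after drawing 200000 gene reads per cell, in percent from 0, with exact 95% Clopper-Pearson intervals as error bars. Unc13d stands at 97.8% in both gates, and Stx11 at 2.17% in both.

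Per kilobase of merged exon, the order of the summed levels was the same in both gates, with Vamp8 first, then Stxbp2, Stx3, Unc13d, Rab27a, Stx4a, Snap23, Rab27b and Stx11. In the CD34-negative gate these levels were 107 CPM per kilobase for Vamp8, 96.5 for Stxbp2, 94.2 for Stx3, 80.0 for Unc13d and 69.1 for Rab27a. The step down to Stx4a, at 34.3, was larger, and Snap23 followed at 21.8 and Rab27b at 0.400. From Vamp8 to Snap23, neighbours in this order were not separated by the spread over cells, while Rab27b, at 0 in most cells, lay apart from Snap23. For example, the middle 50% of CD34-negative cells ran from 34.2 to 132 CPM per kilobase for Stxbp2 and from 37.4 to 138 for Stx3, and the median of Stx3 (84.3) was above that of Vamp8 (62.0). In the CD34-positive gate the levels fanned out, from 106 for Vamp8 and 78.5 for Stxbp2 to 34.4 for Rab27a, which stood close to Stx4a at 29.4.

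Between the gates, the widely found genes were level or lower in the CD34-positive gate relative to gene reads. The log2 fold is the log2 ratio of summed CPM plus 1 CPM, CD34-positive over CD34-negative, and its interval covers counting error only. It was -1.0 (-1.07 to -0.93) for Rab27a, -0.78 (-0.84 to -0.72) for Unc13d and -0.58 (-0.63 to -0.53) for Stx3. Stxbp2 stood at -0.30, Stx4a at -0.22, Snap23 at -0.15 and Vamp8 at -0.01 (-0.07 to 0.06). Stx11 at 2.21 and Rab27b at 1.35 were the only members with positive values, and both rest on single cells. With 0.1 or 10 CPM added in place of 1 CPM, Stx11 was at 4.29 or 0.49 and Rab27b at 1.52 or 0.65. By mean per-cell CPM Rab27b was at 0.94. Without cell 22 of the CD34-positive gate Stx11 was at -0.07, and without cell 43 of that gate Rab27b was at 0.30. Without cell 39 of the CD34-negative gate Rab27b was at 2.66.

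Of the 9 members 3 differed at least 2-fold, Rab27a being lower and Stx11 and Rab27b higher in CD34-positive cells. Among the 12460 genes read in 10 or more kept cells, a filter that 8 of the 9 passed and Stx11 did not, 31.7% differed at least 2-fold, 21.7% upward and 10.1% downward. Relative to gene reads, the members' count is thus near the share of all genes, but this did not hold in every setting. With ERCC scaling 2 members differed at least 2-fold, beside 54.1% of all genes. Without the cell richest in a gene's reads it was 0 members, beside 31.8%. By scran it was 4, also beside 31.8%. Relative to gene reads, Rab27a stood at the limit itself, with a ratio of 0.498, and without cell 12 of the CD34-negative gate its log2 fold was -0.87. The median log2 fold was -0.22 over the 9 members and 0.19 over all genes tested.

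These directions depended on the scaling. The basophil markers summed to 49332 CPM in the CD34-negative and 99330 CPM in the CD34-positive gate, and the median number of genes read per cell was 5304 and 7512. Their part in the differences was not tested. Relative to ERCC reads, the median of all genes moved to 1.04 and 8 of the 9 members had positive values, among them Vamp8 at 0.96, Snap23 at 0.81, Stx4a at 0.74, Stxbp2 at 0.67, Stx3 at 0.38 and Unc13d at 0.18. Rab27a was at -0.04. A scaling shifts well-read genes by nearly the same amount, so the order among them is fixed by its construction. With scran size factors Rab27a was at -1.23, Unc13d at -1.01 and Stx3 at -0.81, while the median of all genes was 0.00. TMM factors per cell gave -0.77, -0.54 and -0.35, with the median of all genes at 0.39. In cells numbered 7 to 42 alone, Rab27b was at 0.19 and no longer 2-fold apart, while Unc13d, at -1.03, was. Stx3 was at -0.30 and Stxbp2 at 0.02 in these cells. The median share of ambiguous reads was 15.6% in these CD34-negative cells and 21% in the others, and 18.9% and 25.1% in CD34-positive cells.

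**Figure D3:**
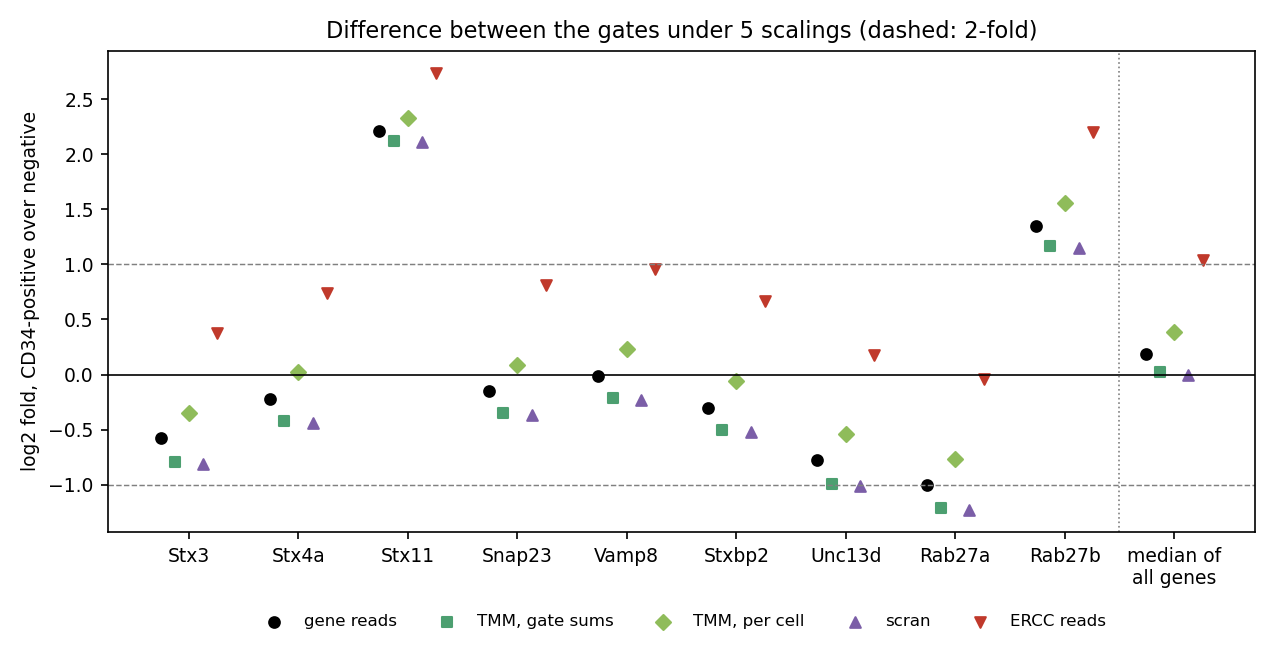
Log2 fold between the gates (vertical axis, CD34-positive over CD34-negative) for each gene and for the median of all 12460 genes tested, under 5 scalings shown by marker, with dashed lines at 2-fold. ERCC scaling lifts every point, Rab27a to -0.04 and the median of all genes to 1.04, and the Stx11 and Rab27b points rest on single cells.

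Across cells of a gate, the levels of the members were only weakly related. Over the 21 pairs of the 7 members other than Stx11 and Rab27b, Spearman's rho of CPM ranged from -0.177 to 0.369 (median 0.0261) over 46 CD34-negative cells. In the CD34-positive gate it ranged from -0.235 to 0.376 (median 0.0640), and no pair reached a rho of 0.50 in either gate. Pearson's r on log2 levels was 0.542 for Stxbp2 with Stx3 in CD34-negative cells, and 0.466 without the 2 farthest cells, while rho was 0.369. The highest rho was that of Stxbp2 with Stx3 in the CD34-negative and of Unc13d with Rab27a in the CD34-positive gate. Pearson's r of the latter pair was 0.226, and 0.361 without the 2 farthest cells. The highest r of the CD34-positive gate was that of Stxbp2 with Stx3, at 0.361, and 0.0127 without the 2 farthest cells. Cells of a gate share unassigned mice and differ in depth, and these values are descriptions. Among 4224 genes with reads in at least 23 cells of each gate, none had a rho of at least 0.50 with one of the 7 members in both gates. The largest smaller value of the 2 gates was 0.488.

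Other genes were taken from 8 lists, called exocytosis lists here. The lists also hold genes of other membrane transport steps, such as Stx18 of the endoplasmic reticulum and Vps45 of endosomes. Of their 113 genes 112 were matched and 82 were read in 10 or more kept cells. Of these 82 genes, 12 (14.6%) were at least 2-fold higher and 15 (18.3%) at least 2-fold lower in CD34-positive cells, and the median log2 fold was -0.15. For all genes tested the shares were 21.7% and 10.1%. With ERCC scaling 35 of the 82 were at least 2-fold higher and 3 lower, beside 51.8% and 2.25% of all genes. These counts were 15 and 6 with TMM factors per cell, beside 27.3% and 6.91% of all genes. With scran size factors they were 8 and 21, beside 17.4% and 14.4% of all genes. The median of the 82 genes was 0.09 with TMM factors per cell, 0.81 with ERCC scaling, and 0.15 without each gene's top cell.

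The list of Rab27 effectors and regulators, which also holds relatives of Unc13d, stood lowest by its median. Like the other lists, it was chosen with earlier results of these data known. Its 6 genes with enough reads were Sytl1, Sytl2, Sytl3, Madd, Unc13a and Unc13b. Of these, 4 were at least 2-fold lower and 1 was higher in CD34-positive cells, beside 10.1% lower and 21.7% higher of all genes tested. With ERCC scaling 1 was at least 2-fold lower and 1 higher. The median log2 fold of the list was -1.18 and became -0.22 with ERCC scaling. Sytl3 (ENSMUSG00000041831, chr17:6659093-6738044, plus strand) encodes a synaptotagmin-like protein that binds Rab27 on granules. Its cells ran from 0 through a median of 203 to 1086 CPM in the CD34-negative gate and from 0 through 1.53 to 329 CPM in the CD34-positive gate. The log2 fold was -3.07 (-3.19 to -2.96), and it was -2.12 with ERCC scaling and -2.97 in cells numbered 7 to 42. At 200000 gene reads Sytl3 was found in 93.5% (82.1% to 98.6%) of CD34-negative and 47.8% (32.9% to 63.1%) of CD34-positive cells.

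The others in this list were named after their values were seen. Sytl2 was at -1.52, Madd, which encodes an exchange factor for Rab3 and Rab27, at -1.31 and Sytl1 at -1.05. With ERCC scaling they were at -0.59, -0.35 and -0.09, and Sytl1 was at -0.60 in cells numbered 7 to 42. Madd was read widely, with a median of 405 CPM in CD34-negative cells and 171 CPM in the others. Unc13b, a relative of Unc13d, was the gene on the other side, at 1.73 with 22 and 135 reads. The CD34-negative reads came from 2 cells, and without its top cell Unc13b was at 0.42. Unc13a, also a relative of Unc13d, was at -0.32 (-0.74 to 0.10) with 139 and 94 reads, and at 0.44 with ERCC scaling.

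Of the granule biogenesis genes, 14 of 19 were lower and 5 were higher in CD34-positive cells (median -0.43). With ERCC scaling 6 were lower and 13 higher (median 0.52). Of all genes tested, 58.9% were higher relative to gene reads and 87.6% with ERCC scaling. Lyst (ENSMUSG00000019726, chr13:13590397-13778803, plus strand), the lysosomal trafficking regulator whose loss enlarges granules, had the most reads of them over both gates, though Nbeal2 had more in the CD34-positive gate (11079 against 7789). It ran from 34.3 through 926 to 2988 CPM in CD34-negative cells and from 0 through 173 to 2077 CPM in CD34-positive cells. Its means of 1074 ± 652 CPM (SD, n = 46 cells) and 269 ± 350 CPM (SD, n = 46 cells) differed by more than either SD. The log2 fold was -2.05 (-2.10 to -2.01), and it was -1.09 with ERCC scaling.

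Hps6 (ENSMUSG00000074811, chr19:46003508-46006173), a subunit of a complex for lysosome-related organelles, had a log2 fold of -2.61. It was read in 12 and 9 cells, 36.5% of its reads came from 1 cell, and without that cell the value was -1.89, and with ERCC scaling it was -1.70. Exoc6b (ENSMUSG00000033769, chr6:84618487-85069513), a subunit of the exocyst tether, was at -1.60, or -0.98 in cells numbered 7 to 42 and -0.65 with ERCC scaling. Of the 9 exocyst genes 4 were higher and 5 lower (median -0.04), and with ERCC scaling 8 were higher and 1 lower (median 0.91).

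Among the genes read in 10 or more kept cells, the 4 highest of the lists came from the SNARE binders and the other SNAREs. Genes of the same lists also stood lower, such as Vps33a at -1.11 and Stxbp3 at -1.08 (-0.16 and -0.17 with ERCC scaling), named after their values were seen. Vps45 (ENSMUSG00000015747, chr3:95999832-96058466), a Sec1/Munc18 protein of endosomes, was at 2.19, with 4.04 CPM in the CD34-negative and 22 CPM in the CD34-positive sum, and stood at 1.19 at a pseudocount of 10 CPM. Scfd2 (ENSMUSG00000062110, chr5:74204816-74531759), a Sec1-family gene, was at 2.02 and found in 17.4% (7.82% to 31.4%) and 58.7% (43.2% to 73.0%) of cells. Txlna (ENSMUSG00000053841, chr4:129626078-129641065), which encodes the syntaxin binder alpha-taxilin, was at 1.84 and found in 32.6% (19.5% to 48.0%) and 87.0% (73.7% to 95.1%) of cells. Stx18 (ENSMUSG00000029125, chr5:38038742-38137765), a syntaxin of the endoplasmic reticulum, was at 1.77. Its exons share 908 bases (19.8%) with Gm42858 on the opposite strand, which had 25 reads. With ERCC scaling these 4 genes were at 3.05, 2.96, 2.79 and 2.70. Of the 27 other SNAREs, 15 were higher and 12 lower (median 0.09), a median that was -0.13 with scran size factors and -0.11 with TMM factors on the gate sums. With ERCC scaling 23 were higher and 4 lower (median 1.03), and with TMM factors per cell 18 were higher and 9 lower (median 0.32).

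**Figure D4:**
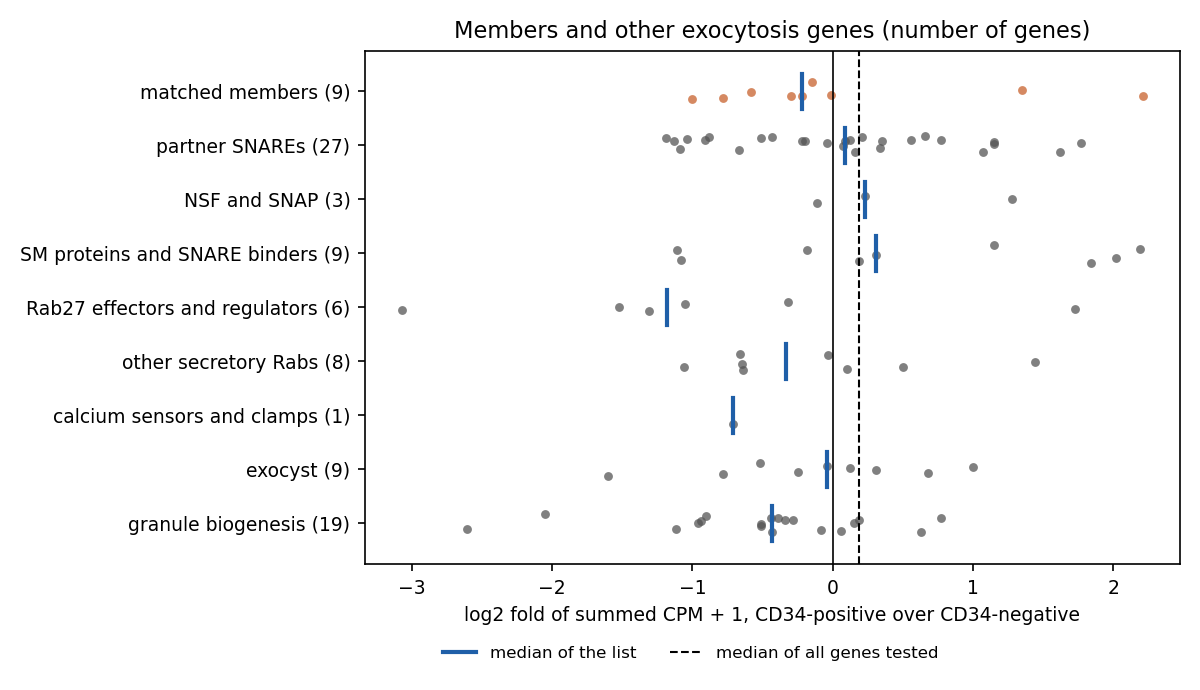
Log2 fold of summed CPM plus 1 (horizontal axis, CD34-positive over CD34-negative) for the 9 members and for the genes of 8 exocytosis lists read in 10 or more kept cells, 1 point per gene, with list medians in blue. The list of Rab27 effectors and regulators, which includes Unc13a and Unc13b, has the lowest median, -1.18, with Sytl3 at -3.07. The dashed line marks the median of all genes tested at 0.19.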

How the data were processed

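Single cells were sorted into a plate, and polyadenylated RNA was turned into cDNA with ERCC spike-ins, amplified over 19 PCR cycles and sequenced from a single end (50 bp), per the labels' protocols. The authors deposited raw read counts per gene and cell, made with GSNAP and HTSeq (0.5.3p3) on mm10, per the submitters' processing notes. The annotation release and strand setting are not given in the sources used here. Genes took 32.4% of all reads and ERCC sequences 3.97%, while 7.68% were ambiguous between genes, 33.0% lay in no gene and 22.9% were not aligned. Only gene reads entered library sizes.

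A kept cell had 50000 or more gene reads, 1000 or more genes, under 20% mitochondrial and under 50% ERCC reads, which kept 92. No mouse is given per cell, so no test was run. Reads were summed per gate. Intervals on sums are exact Poisson and those on shares Clopper-Pearson, both at 95% and for counting error only, since reads without molecular identifiers are not independent molecules. Fold intervals set opposite bounds against each other. Detection was compared after drawing 200000 gene reads per cell. Since cells were sorted singly, doublets were not called, and no clustering was done.

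Symbols (45143 of the identifiers), positions and merged exon lengths came from GENCODE M21 (GRCm38, the build mm10 names). All members are named, as are the 4 highest and 4 lowest genes of the other exocytosis lists, and genes with a rho of at least 0.5 in both gates. The members and lists were chosen with earlier results of these data known. Alternatives were no cell filter, mean per-cell CPM, TMM, scran and ERCC scaling, a total without mitochondrial and 2 ribosomal RNA locus genes, pseudocounts of 0.1 and 10 CPM, other depths and detection limits, and leaving out cells. TMM on the gate sums was chosen after the data were seen. R 4.3.3 ran edgeR 4.0.16 (for TMM factors) and scran 1.30.0. All else ran in Python 3.11.15 with pandas 2.3.3, scipy 1.17.1, numpy 2.4.6 and matplotlib 3.10.9.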

Additional observations from a re-analysis of the deposited data

Results flagged for a closer look

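The 2 cells left out of the comparisons, for their low number of gene reads, held reads of the members. Cell 3 of the CD34-positive gate, with 31504 gene reads, had 8 reads of Unc13d and 7 of Rab27a. Each was above the 3 reads that a count of 0 would allow if reads were independent. Of the 9 members 6 had a read in that cell. Cell 20 of the CD34-negative gate, with 24565 gene reads, had reads of 4 members, none above 3 reads.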

How the results depend on the processing

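No paired analysis was possible because numbers in the labels serve as names of cells and nothing was tested. What causes these shifts was not tested. The median log2 fold of the members (-0.22) was 0.74 with ERCC scaling, 0.02 with TMM factors per cell, -0.42 with TMM factors on the gate sums, -0.44 with scran size factors, and -0.09 without each gene's top cell, the one with most of its reads. Leaving out each cell in turn gave -0.31 to -0.10, and 1 to 3 members at least 2-fold apart. That count was 3, beside 31.7% of all genes tested. It was 0 with a pseudocount of 10 CPM (16.9% of all genes) or without each gene's top cell (31.8%), and 4 by scran (31.8%). By TMM factors per cell (34.2%), ERCC scaling (54.1%), mean per-cell CPM (31.3%) or no cell filter (31.7%) it was 2. The total without ribosomal RNA locus and mitochondrial genes (31.9%) also gave 2. The median of the other exocytosis genes (-0.15) was 0.81, 0.09, -0.35, -0.37 and 0.15 under the same 5 settings, and -0.21 to -0.09 with each cell left out. Members found per CD34-negative cell (6) were 7 without drawing and 7 in cells numbered 7 to 42. With ERCC scaling the sign turned for Snap23 (0.81), Stx3 (0.38), Stx4a (0.74), Vamp8 (0.96), Unc13d (0.18) and Stxbp2 (0.67). TMM factors per cell turned Snap23 (0.09), Stx4a (0.02) and Vamp8 (0.23). Vamp8 also turned with mean per-cell CPM (0.10), without ribosomal RNA locus and mitochondrial genes (0.01) and without cell 24 of the CD34-negative gate (0.14, and -0.08 at the lowest with another cell left out), and Stx11 without cell 22 of the CD34-positive gate (-0.07, and up to 2.29 with another left out), as did Stxbp2 in cells numbered 7 to 42 (0.02). Few reads limit Stx11 (4 and 126) and Rab27b (143 and 374).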

Other observations

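Rab44, which encodes a large Rab GTPase of granulocytes and mast cells, was the most heavily read of the other secretory Rabs. Its level ran from 0 through a median of 751 to 3278 CPM in CD34-negative cells and from 36.7 through 900 to 3239 CPM in CD34-positive cells. The log2 fold was -0.03, and 0.94 with ERCC scaling. Nbeal2, a relative of Lyst needed for platelet granules, was read in every kept cell, with medians of 760 and 318 CPM and a log2 fold of -1.12 that was -0.15 with ERCC scaling. Nsf, the ATPase that takes spent SNARE complexes apart, had a log2 fold of 1.28, and 2.23 with ERCC scaling. It was found at 200000 gene reads in 41.3% (27% to 56.8%) of CD34-negative and 80.4% (66.1% to 90.6%) of CD34-positive cells. These genes were chosen after their values were seen.

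Cadps2, which encodes a priming factor of dense-core vesicles, was the single gene among 14 calcium sensors and clamps that was read in 10 or more kept cells. It had a read in all 92 kept cells, in a narrow band of 55.4 to 277 CPM in the CD34-negative and 17.6 to 157 CPM in the CD34-positive gate. Its coefficient of variation over CD34-negative cells was 0.281, and 3 of the 253 genes read in every kept cell had a lower one, at a median of 0.609 for those genes. In the CD34-positive gate it was 0.431, with 26 genes lower. What sets this spread was not tested.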
